A study of Mus musculus with 4 samples.

Results

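The epithelial chemokines are 10 genes, Ccl6, Ccl9, Ccl20, Ccl25, Ccl28, Cxcl1, Cxcl5, Cxcl10, Cxcl16 and Cx3cl1, taken by symbol from the 51509 genes of a count table of mouse intestinal organoids. Organoids are miniature cultures of gut epithelium, here from wild-type C57BL/6 mice aged 8 to 12 weeks. All libraries, controls included, came from organoids given 8 Gy of irradiation, with RNA taken 36 hours later. The vehicle group and the SGC-CBP30 group held 2 libraries each, and no unirradiated group was analysed here. SGC-CBP30 blocks the bromodomains, which read acetylated lysines, of the acetyltransferases CBP and p300. SGC-CBP30 replicate 2 carries the name SGC-CBP31 in its treatment label and was placed by its title and the stated group size; fold changes without it are given after those of the single genes. The labels name neither the segment of the intestine nor whether replicates are separate cultures or animals, so a p-value here speaks only of library-to-library spread, and that spread may be technical.

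The genes were selected on the raw counts of these same 4 libraries, with results of the only contrast the study has already known. Their levels and fold changes are therefore a description, and nothing is supported with how many of them passed a threshold. All 10 had a row in the table, 8 passed the filter on low counts, and Cxcl1 and Cxcl5 did not.

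Chemokines are small proteins that guide the migration of leukocytes through G protein-coupled receptors, and they are sorted into CC, CXC and CX3C classes by the spacing of their first cysteines. In the gut, epithelial cells make some of them at rest, such as Ccl25, which draws T cells and plasma cells to the small intestine, and others mainly after inflammatory signals, such as Cxcl1 and Cxcl10. Most are secreted, whereas Cxcl16 and Cx3cl1 are made as membrane proteins that proteases can release.

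The sequences just upstream of 4 of the genes are shown first. Ccl6 and Ccl9 are neighbours in the genome that both fell, while Ccl20 and Cxcl10, known targets of inflammatory signalling, did not pass the threshold. The 4 genes were thus chosen by their outcome, and Cxcl10, with 5 to 14 counts, could not show a moderate change. Each run gives, 5′ to 3′ on the gene's own strand, the 250 bases before the RefSeq transcript start (GRCm38.p6), with motif matches in capitals. The windows are chr11:83593088-83593337 (minus strand) for Ccl6, chr11:83578637-83578886 (minus) for Ccl9, chr1:83116516-83116765 (plus) for Ccl20 and chr5:92348890-92349139 (minus) for Cxcl10.
Ccl6: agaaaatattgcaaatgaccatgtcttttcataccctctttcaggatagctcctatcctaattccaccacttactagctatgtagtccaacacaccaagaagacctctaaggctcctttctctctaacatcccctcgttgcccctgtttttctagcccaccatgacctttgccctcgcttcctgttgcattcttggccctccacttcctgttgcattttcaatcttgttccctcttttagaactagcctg
Ccl9: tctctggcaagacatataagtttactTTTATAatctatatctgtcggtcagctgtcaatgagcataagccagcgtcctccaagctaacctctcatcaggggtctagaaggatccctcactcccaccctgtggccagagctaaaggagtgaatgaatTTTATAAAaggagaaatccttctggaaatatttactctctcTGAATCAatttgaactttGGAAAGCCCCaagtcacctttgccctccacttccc
Ccl20: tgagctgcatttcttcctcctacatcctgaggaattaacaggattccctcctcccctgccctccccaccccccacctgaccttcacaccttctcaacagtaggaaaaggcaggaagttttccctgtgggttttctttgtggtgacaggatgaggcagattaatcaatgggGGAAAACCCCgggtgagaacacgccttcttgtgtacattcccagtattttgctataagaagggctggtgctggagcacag
Cxcl10: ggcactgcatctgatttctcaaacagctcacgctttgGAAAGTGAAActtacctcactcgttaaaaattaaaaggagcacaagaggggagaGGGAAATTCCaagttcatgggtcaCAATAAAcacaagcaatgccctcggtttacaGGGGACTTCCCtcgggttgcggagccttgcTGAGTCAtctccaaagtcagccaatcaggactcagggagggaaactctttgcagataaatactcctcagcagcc

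The motifs searched, on both strands, were TATAAA for the TATA box, the NF-kB consensus, GAAA followed by 2 bases of any kind and GAAA again (the interferon-stimulated response element, ISRE), TGANTCA (AP-1) and TTTATNG (CDX-type). RefSeq gave a window for 8 of the 10 genes, and 9 windows in all because Ccl25 has 2 starts. The NF-kB consensus matched in 4 of the 8 genes, Ccl9, Ccl20, Cxcl1 and Cxcl10, against 7.25% of 32851 mouse windows of the same length. In Ccl9 the match GGAAAGCCCC lay at -35 to -26 from the start, and in Ccl20 GGAAAACCCC lay at -80 to -71. Cxcl10 held 3 NF-kB matches, of which GGGGACTTCC and GGGACTTCCC overlap, and was the 1 gene of the 8 with an ISRE match, GAAAGTGAAA at -213 to -204. ISRE matches occurred in 2.98% of all windows. The Ccl6 window held none of these letters. Ccl6 and Ccl9 lie 9245 bases apart on the same strand of chromosome 11 and were 4.94-fold and 6.50-fold lower in SGC-CBP30. Whether motif letters or position bear on these fold changes was not tested. In an end-to-end alignment with gaps, identical bases made up 58.4% of the 250 bases for the Ccl6 and Ccl9 windows. The other 35 pairs of windows gave 50.8% to 61.6%. Such an alignment cannot show short stretches shared at shifted positions, so neither likeness nor unlikeness of the 2 windows is read from it. AP-1 letters occurred in Ccl9 and Cxcl10 (6.75% of all windows), TATA box letters in Ccl9, the second Ccl25 start and Cx3cl1 (12.4%), and CDX-type letters in the second Ccl25 start and Cxcl10 (9.81%). In the second Ccl25 window the CDX-type match overlaps the TATA box match. A match is a run of letters, and no binding was measured.

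**Figure D1:**
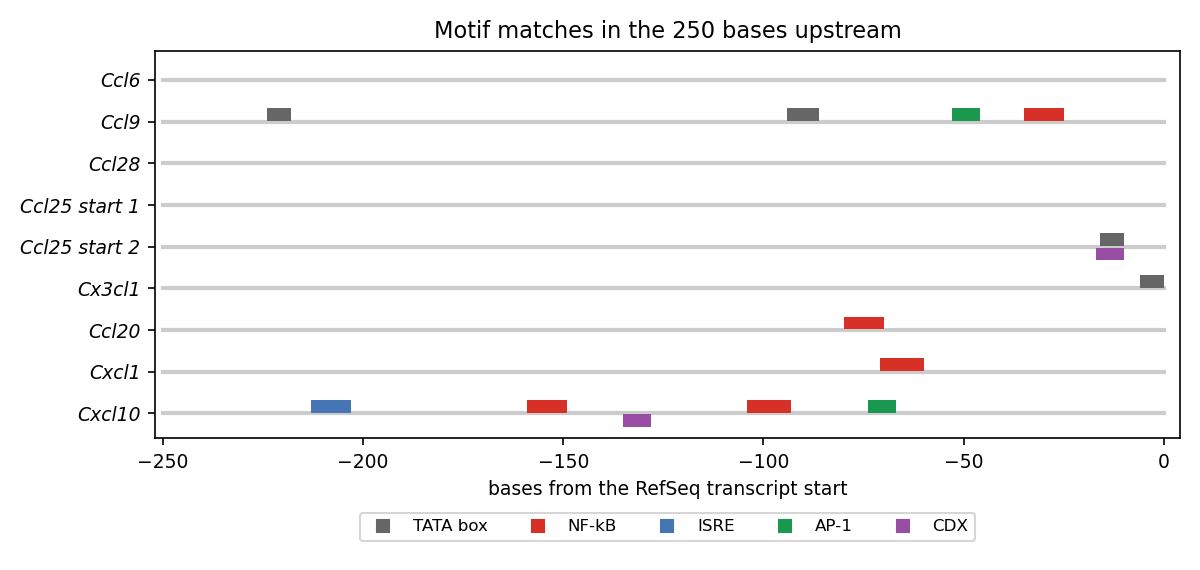
Positions of motif matches in the 250 bases upstream of 8 chemokine genes, in bases from the RefSeq transcript start, with 1 line per window and 1 colour per motif (CDX-type matches below the line, others above). The Ccl6, Ccl28 and first Ccl25 windows are empty, and NF-kB matches appear in Ccl9, Ccl20, Cxcl1 and Cxcl10.

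The libraries held 16433117 to 18087250 counts, and a gene was called past the threshold at a Benjamini-Hochberg adjusted p under 0.05 in edgeR's quasi-likelihood test of SGC-CBP30 against vehicle over 14684 genes. Levels are given as CPM, counts relative to library size scaled with TMM factors, and the floor of 3 counts lies at 0.170 to 0.188 CPM, depending on the library. In all genes tested, 30.0% were called, 16.3% lower and 13.6% higher, and the median log2 fold change was 0.010. Of the 8 tested chemokines 5 were called lower, 0 higher and 3 were not past the threshold, with a median log2 fold change of -0.44. In the same 5 genes the groups did not overlap, with SGC-CBP30 lower, as in 31.0% of all tested genes (63.1% in either direction). Nothing is read from these shares, because the genes were named with this contrast known.

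**Figure D2:**
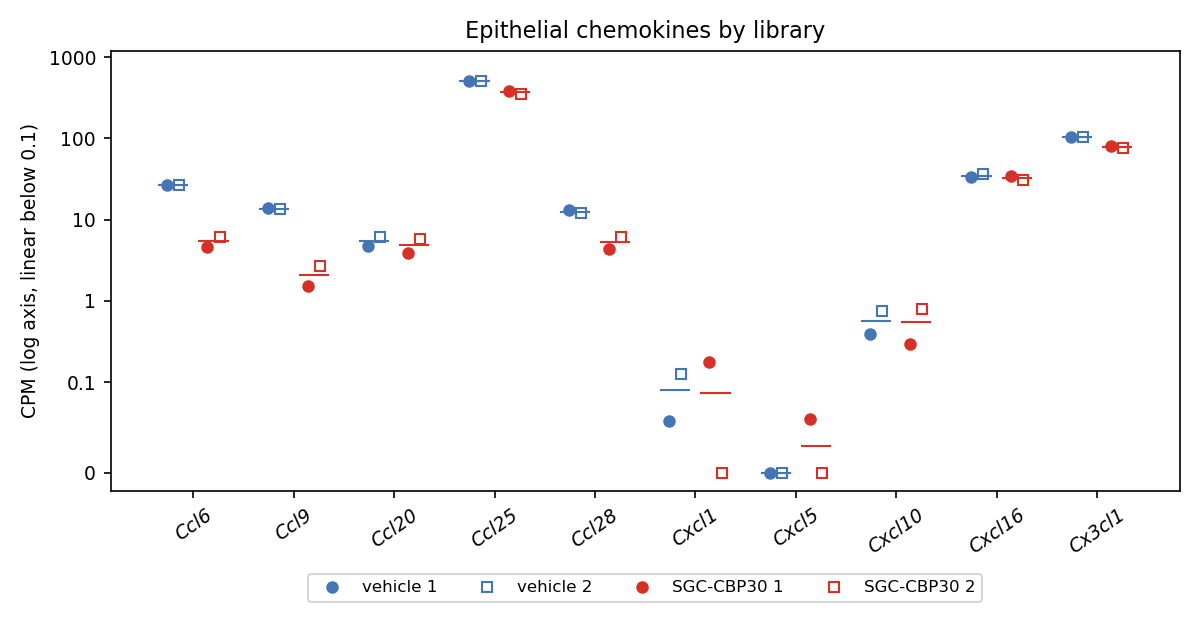
Level of each chemokine in CPM in each of the 4 libraries (points), with the group mean as a line, on an axis that is logarithmic above 0.1. Ccl6, Ccl9 and Ccl28 lie clearly lower in both SGC-CBP30 libraries, Ccl25 and Cx3cl1 lie slightly lower, and the points of the other 5 genes overlap between groups.

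Ccl6 and Ccl9, CC chemokines of rodents that attract myeloid cells through Ccr1, fell most. Ccl6 (ENSMUSG00000018927, GRCm38 chromosome 11, 83587882 to 83593087, minus strand) had 26.4 and 26.9 CPM in the vehicle libraries and 4.59 and 6.21 CPM in SGC-CBP30 replicates 1 and 2, from 467, 429, 78 and 109 counts. Both SGC-CBP30 libraries were far below both vehicle libraries, and the log2 fold change was -2.30 ± 0.15 (SE), 4.94-fold lower. Ccl9 (ENSMUSG00000019122, chromosome 11, 83572919 to 83578636, minus strand), which is also made by the epithelium over lymphoid follicles, had 13.8 and 13.5 CPM in vehicle and 1.53 and 2.68 CPM in SGC-CBP30. Again the groups were far apart, with a log2 fold change of -2.69 ± 0.23 (6.50-fold lower). Of all genes tested, 82 had a fold change as low as that of Ccl9 or lower, 0.558% of them, and 127 as low as that of Ccl6.

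The pair did not fall in strict proportion in every library. There were 1.91 and 1.99 Ccl6 counts for each Ccl9 count in the vehicle libraries and 3.0 and 2.32 in SGC-CBP30 replicates 1 and 2. SGC-CBP30 replicate 1, with 26 Ccl9 counts, gave the highest ratio, and this difference between the genes was not tested. No run of 50 bases of the Ccl6 transcripts occurs in transcripts of another gene, Ccl9 included. Of the 2996 such runs of Ccl9, 59 also occur elsewhere, in transcripts of 463 genes in all.

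The genes around the pair were almost silent apart from Taf15, a gene of transcription initiation. Within 100000 bases, Taf15 had 1356 and 1219 counts in vehicle and 1398 and 1227 in SGC-CBP30. The chemokine gene Ccl5 had 6, 2, 4 and 4 counts in the order vehicle 1, vehicle 2, SGC-CBP30 1 and SGC-CBP30 2. Ccl3 and Ccl4 had 1 count each, both in SGC-CBP30 replicate 2. E230016K23Rik, a transcript on the opposite strand that spans Ccl6, had 2 and 8 counts in vehicle and 0 in both SGC-CBP30 libraries, and it shares no exon bases with Ccl6.

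Ccl28 and Ccl25 are the CC chemokines that bring lymphocytes to mucosal surfaces, Ccl28 through Ccr10 and Ccr3 and Ccl25 through Ccr9. Ccl28 (ENSMUSG00000074715, chromosome 13, 119623819 to 119654359, plus strand) had 13.3 and 12.0 CPM in vehicle and 4.41 and 6.15 CPM in SGC-CBP30. Both SGC-CBP30 libraries were below both vehicle libraries, and the log2 fold change was -1.26 ± 0.19 (SE), 2.39-fold lower. Ccl25 (ENSMUSG00000023235, chromosome 8, 4325210 to 4360020, plus strand) was the most abundant member, with 516 and 512 CPM in vehicle and 379 and 357 CPM in SGC-CBP30. Its drop was small and even across libraries, -0.48 ± 0.06 on the log2 scale (1.39-fold lower). The counts do not separate its 2 RefSeq starts, at positions 4325210 and 4349588. The exons that begin at the upstream start share 204 bases with Elavl1 on the opposite strand, out of 7445 exon bases.

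Ccl20, a CC chemokine that attracts Ccr6-bearing dendritic cells and lymphocytes and is typical of the epithelium over follicles, did not pass the threshold. Ccl20 (ENSMUSG00000026166, chromosome 1, 83116766 to 83119167, plus strand) had 4.70 and 6.20 CPM in vehicle and 3.94 and 5.87 CPM in SGC-CBP30. The groups overlapped, and the log2 fold change was -0.15 ± 0.25 (SE). Its sign turned without vehicle replicate 2 (0.067) or without SGC-CBP30 replicate 1 (0.106).

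The membrane-bound chemokines differed from each other in whether they passed the threshold. Cx3cl1 (ENSMUSG00000031778, chromosome 8, 94772009 to 94782427, plus strand), fractalkine, the ligand of Cx3cr1 on mononuclear phagocytes, had 105 CPM in each vehicle library and 81.5 and 77.2 CPM in SGC-CBP30. The groups were apart by more than the spread within either, at -0.40 ± 0.07 (SE) on the log2 scale, 1.32-fold lower. Cxcl16 (ENSMUSG00000018920, chromosome 11, 70453983 to 70459984, minus strand), the ligand of Cxcr6 on T cells, had 33.5 and 36.5 CPM in vehicle and 34.4 and 30.7 CPM in SGC-CBP30. Its groups overlapped and its log2 fold change of -0.10 ± 0.10 did not pass the threshold; the difference between the fold changes of these genes was not tested. Cxcl16 shares 552 of its 3021 exon bases with Zmynd15 on the opposite strand, which had 42 and 57 counts in vehicle and 41 and 40 in SGC-CBP30, against 592, 582, 585 and 539 for Cxcl16.

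The inflammatory CXC chemokines were at or near the floor in both groups. Cxcl1 (ENSMUSG00000029380, chromosome 5, 90891241 to 90893115, plus strand), a neutrophil attractant that acts on Cxcr2, had 1 and 2 counts in vehicle and 3 and 0 in SGC-CBP30. Cxcl5 (ENSMUSG00000029371, chromosome 5, 90759360 to 90761624, plus strand), another Cxcr2 ligand, had 1 count in all, in SGC-CBP30 replicate 1. Cxcl10 (ENSMUSG00000034855, chromosome 5, 92346638 to 92348889, minus strand), an interferon-induced ligand of Cxcr3, had 7 and 12 counts in vehicle and 5 and 14 in SGC-CBP30, or 0.396, 0.752, 0.294 and 0.797 CPM. Its groups overlapped almost wholly, at -0.05 ± 0.68 (SE) on the log2 scale, so a change of moderate size was not detectable at this depth. No fold is given for Cxcl1 and Cxcl5, which were at or under the floor in each group.

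**Figure D3:**
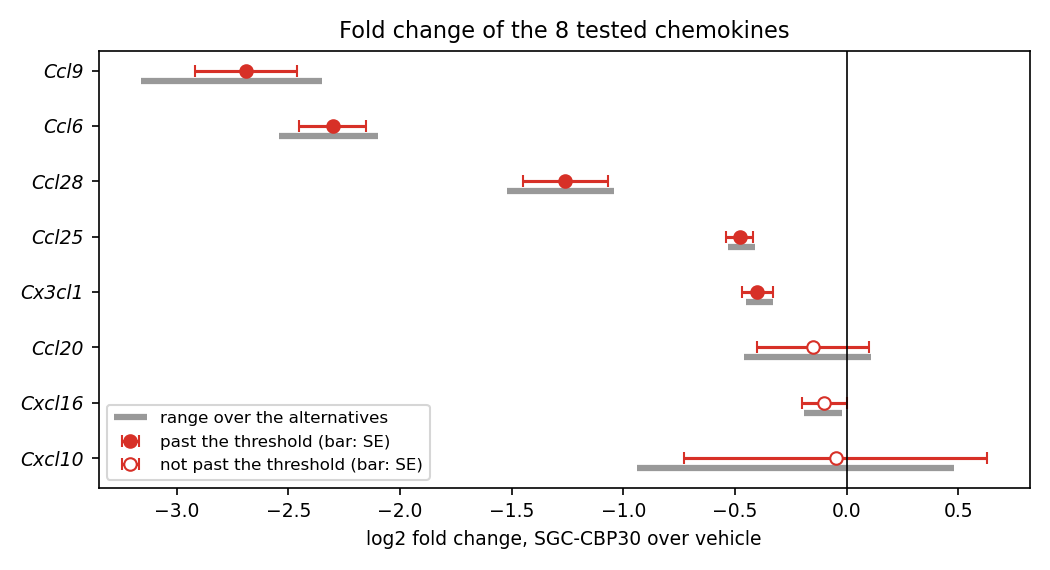
Log2 ratio of SGC-CBP30 to vehicle for the 8 tested chemokines (points, with the SE as bars; filled where past the threshold), and below each the range over the alternative settings (grey). Ccl9, Ccl6 and Ccl28 lie beyond -1, Ccl25 and Cx3cl1 between -0.33 and -0.53 under every setting run, and the grey ranges of Ccl20 and Cxcl10 cross 0.

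The size of the drop varied with the SGC-CBP30 library used. Without SGC-CBP30 replicate 2 the log2 fold change was -3.155 for Ccl9, -2.538 for Ccl6, -1.519 for Ccl28, -0.437 for Ccl25 and -0.365 for Cx3cl1. Without SGC-CBP30 replicate 1 it was -2.354 for Ccl9, -2.105 for Ccl6, -1.043 for Ccl28, -0.527 for Ccl25 and -0.447 for Cx3cl1. Leaving out replicate 1 rather than 2 thus gave a smaller drop for Ccl9, Ccl6 and Ccl28 and a larger one for Ccl25 and Cx3cl1. All 5 genes called lower were past the threshold under each of the 10 alternatives. The authors' deposited table gives a log2 fold change of -2.6984 for Ccl9, -2.303 for Ccl6, -1.2582 for Ccl28, -0.4794 for Ccl25 and -0.4033 for Cx3cl1.

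Levels can be set against each other between genes only per length, for which the deposited FPKM values, counts scaled by exon length and library size, were used. In vehicle the order was Ccl25 (68.6 ± 0.151 FPKM, SD, n = 2), Cx3cl1 (26.6 ± 0.00247), Ccl6 (14.8 ± 0.226), Cxcl16 (11.5 ± 0.729), Ccl9 (4.47 ± 0.0485), Ccl20 (3.82 ± 0.758), Ccl28 (2.59 ± 0.185) and Cxcl10 (0.254 ± 0.112). Of these neighbours, Ccl9 and Ccl20 did not differ by more than the SD of Ccl20. With SGC-CBP30, Ccl6 (2.99 ± 0.634 FPKM) dropped from above Cxcl16 to beside Ccl20 (3.43 ± 0.952), the pair lying within their spread, and Ccl9 (0.687 ± 0.265) dropped below Ccl28 (1.08 ± 0.252). Ccl25 (49.2 ± 2.11), Cx3cl1 (20.1 ± 0.781) and Cxcl16 (10.7 ± 0.865) then held the top places. FPKM divide by all annotated exon bases of a gene, 7445 for Ccl25 and 1795 for Ccl6, so a level per length depends on that annotated length.

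**Figure D4:**
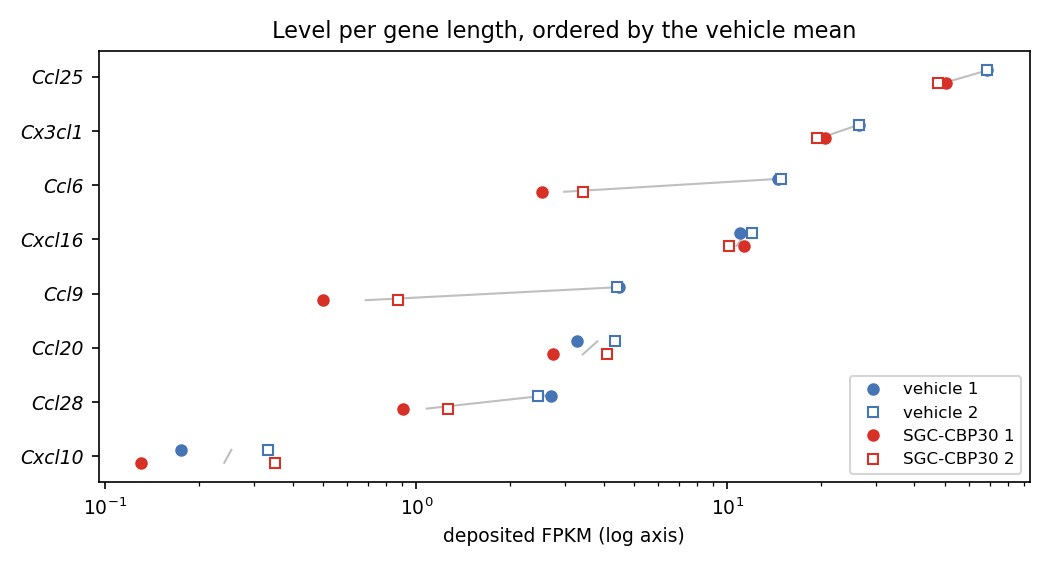
Deposited FPKM of 8 chemokines in each library on a log axis, ordered by the vehicle mean, with a line joining the group means; Cxcl1 and Cxcl5, under 0.1 FPKM, are left out. Ccl6 and Ccl9 shift left past their neighbours, and Cxcl16 and Ccl20 stay in place.

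Per length, Ccl25 held 52.2% and 51.2% of the members' summed deposited FPKM in vehicle and 56.6% and 54.6% in SGC-CBP30. The summed FPKM went from 132 and 134 in vehicle to 89.6 and 87.4 in SGC-CBP30, so the sum was lower in both treated libraries. In bulk libraries fewer cells of a type and less RNA per cell cannot be told apart.

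The labelled tissue was checked against marker genes. The 8 general epithelial markers, such as Epcam and Vil1, were detected in every library and summed to 7777 and 7813 CPM in vehicle and 9968 and 9176 CPM in SGC-CBP30. Immune cell markers were low but not absent: 14 genes summed to 13.9 and 11.8 CPM in vehicle and 10.4 and 10.3 CPM in SGC-CBP30, with Nkg7 at 0 and Ptprc, the general leukocyte gene, at 7, 6, 6 and 5 counts. Of the 4 that passed the filter, Cd14, a gene of lipopolysaccharide recognition, was the most abundant, with 101 and 97 counts in vehicle and 95 and 96 in SGC-CBP30. Csf1r, the macrophage growth factor receptor gene, fell from 53 and 38 counts to 13 and 11, while Cd14 (log2 fold change -0.09 ± 0.22, SE), Cd68 (0.19 ± 0.40) and Itgam (-1.02 ± 0.52) did not pass the threshold. Itgax, an integrin gene of myeloid cells that was not tested, had 2 and 1 counts in vehicle and 13 and 9 in SGC-CBP30. The part of these cells in the chemokine values was not tested. Fibroblast markers summed to 1.19 to 3.35 CPM, with Lum and Thy1 at 0, and endothelial markers to 1.94 to 2.13 CPM.

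Markers of the epithelial lineages are given beside the chemokines, with 13.6% of all tested genes called higher and 16.3% lower as the background. Of 12 goblet cell markers 1 rose and 3 fell, and they summed to 4903 and 4771 CPM in vehicle and 4950 and 4987 CPM in SGC-CBP30. Of 12 enterocyte markers 1 rose and 7 fell, with sums of 45117 and 45383 CPM in vehicle and 35363 and 32747 CPM in SGC-CBP30. These sums are weighted to abundant genes, above all Sis, with group means of 15115 CPM in vehicle and 7284 CPM in SGC-CBP30. Apoa4 was the 1 that rose, from 4267 to 5760 CPM. The other 4, Alpi, Apoa1, Fabp1 and Rbp2, did not pass the threshold, so the lower sum does not hold for each marker. Of 7 tested markers of M cells and the epithelium over follicles 1 rose, Anxa5, and 2 fell, with sums of 127 and 128 CPM in vehicle and 134 and 122 CPM in SGC-CBP30. The M cell gene Gp2 had 0 counts in all libraries. Differences between these lists, and their part in the chemokine values, were not tested.

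The other chemokine genes were mostly silent. Of 30 genes found, 17 had no count in any library, among them Cxcl2 and Cxcl3, neutrophil attractants like Cxcl1, and 2 passed the filter. Transcripts of Cxcl11, which lies 10654 bases from Cxcl10, fell from 45 and 50 counts to 14 and 17. The log2 fold change was -1.65 ± 0.40 (SE, edgeR adjusted p = 0.00258). Whether a working Cxcl11 protein is made in these organoids was not tested. All SGC-CBP30 values of Cxcl11 were below its vehicle values, whereas those of Cxcl10 overlapped. Ccl27a, the other tested gene, had -0.24 ± 0.37 and did not pass the threshold.

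Receptors of the chemokines, which belong mainly to leukocytes, were barely detected. In the order vehicle 1, vehicle 2, SGC-CBP30 1 and SGC-CBP30 2, Ccr9 had 16, 15, 10 and 23 counts, Ccr10 had 4, 9, 9 and 7, Cxcr6 had 4, 6, 2 and 2, and Cx3cr1 had 4, 5, 0 and 1. Ccr6 had 1 count and Cxcr3 had 3 in all, and Ccr1, Ccr3 and Cxcr2 had 0. Of 23 receptor genes 2 were tested, Ccr9 (0.04 ± 0.54) and Ackr4 (-0.34 ± 0.40), a scavenging receptor that takes up Ccl25, and neither passed the threshold; 0 of the 23 were called by edgeR.

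Of 13 tested peptidase and protease genes, listed as possible chemokine-cleaving or chemokine-releasing enzymes, 3 rose and 6 fell (all tested genes: 13.6% higher, 16.3% lower). Their median log2 fold change was -0.34 against 0.010 over all genes. The peptidase genes Enpep (-1.06 ± 0.06), Anpep (-1.03 ± 0.06) and Dpp4 (-0.80 ± 0.06) fell, and Dpp4 is known to trim Cxcl10 and other chemokines. Anpep is also counted among the enterocyte markers above. Whether Enpep or Anpep acts on these chemokines was not tested. Ctss, a lysosomal protease gene, fell by 0.53 ± 0.10 on the log2 scale. Among the sheddases of Cxcl16 and Cx3cl1, Adam10 rose by 0.25 ± 0.07, a call lost without vehicle replicate 1 (edgeR adjusted p = 0.344, log2 fold change 0.162), and Adam17 had 0.12 ± 0.08 and did not pass the threshold. Without vehicle replicate 1, 0 enzymes of the list were called higher by edgeR in place of 3.

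Of 17 NF-kB factors and inhibitors 4 rose and 4 fell (all tested genes: 13.6% higher, 16.3% lower), with a median of 0.01. Tnfaip3, a feedback inhibitor of the pathway, fell by 0.76 ± 0.11 (SE) on the log2 scale, Relb by 0.48 ± 0.10 and Nfkbiz by 0.40 ± 0.08. The genes of the activating kinase complex did not move together. Ikbkb rose by 0.41 ± 0.08, Chuk fell by 0.23 ± 0.07, and Ikbkg (0.03 ± 0.09) did not pass the threshold. Nfkb1 rose by 0.35 ± 0.07, and Nfkbie, an inhibitor gene, by 0.96 ± 0.29. Rela had 0.24 ± 0.08 and passed the threshold (edgeR adjusted p = 0.0291), but not without vehicle replicate 1 (adjusted p = 0.144), vehicle replicate 2 (adjusted p = 0.208) or SGC-CBP30 replicate 1 (adjusted p = 0.0513), nor with DESeq2 (adjusted p = 0.109). The list had 2 genes called higher in place of 4 without vehicle replicate 1 or with DESeq2. Nfkbia, the inhibitor gene that NF-kB itself induces, had 0.12 ± 0.10 and did not pass the threshold.

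Of 21 tested receptors and adaptors that sense cytokines and microbes 3 rose and 7 fell (all tested genes: 13.6% higher, 16.3% lower). Their median log2 fold change was -0.20. Tnfrsf11a, which encodes the receptor RANK that drives M cell development, went from 17.7 ± 0.538 to 6.77 ± 0.0944 CPM (SD, n = 2), a log2 fold change of -1.39 ± 0.15 (SE). The interleukin-17 receptor chain genes went opposite ways: Il17ra rose by 0.74 ± 0.11 and Il17rc fell by 0.45 ± 0.09. Il10rb fell by 0.36 ± 0.08. Without vehicle replicate 2 the list had 4 genes called lower in place of 7, and with DESeq2 it had 1 called higher in place of 3.

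Of 17 genes of interferon induction and signalling 3 rose and 4 fell (all tested genes: 13.6% higher, 16.3% lower). Their median log2 fold change was 0.00 to 2 decimals. Mavs (-0.48 ± 0.07) and Ifngr2 (-0.34 ± 0.06) fell and Irf7 rose by 0.68 ± 0.11. Jak2 fell by 0.24 ± 0.06, a call lost without vehicle replicate 1 (edgeR adjusted p = 0.0537) or 2 (adjusted p = 0.198). Irf1 (-0.14 ± 0.08) did not pass the threshold. Without vehicle replicate 1 or 2 the list had 2 genes called lower in place of 4, and with library totals as the scale 5 were called higher in place of 3.

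Of 14 transcription factors of the intestinal epithelium 2 rose and 5 fell (all tested genes: 13.6% higher, 16.3% lower), with a median of -0.02. Hnf4g fell by 0.72 ± 0.06, Gata6 by 0.46 ± 0.07 and Cdx1 by 0.46 ± 0.08, and Elf3 rose by 0.28 ± 0.07, a call lost without vehicle replicate 1 (edgeR adjusted p = 0.242). Cdx2, a factor known to act on the Ccl25 promoter, had -0.21 ± 0.07 and passed the threshold (edgeR adjusted p = 0.0295), but not with DESeq2 (adjusted p = 0.0723), with library totals (adjusted p = 0.147), or without vehicle replicate 1 (adjusted p = 0.222), vehicle replicate 2 (adjusted p = 0.170) or SGC-CBP30 replicate 2 (adjusted p = 0.203). Without vehicle replicate 1 or 2 the list had 3 genes called lower in place of 5. Its count of genes called higher was 0 without vehicle replicate 1, 1 with DESeq2, with robust = FALSE or with at least 50 counts, and 4 with library totals.

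**Figure D5:**
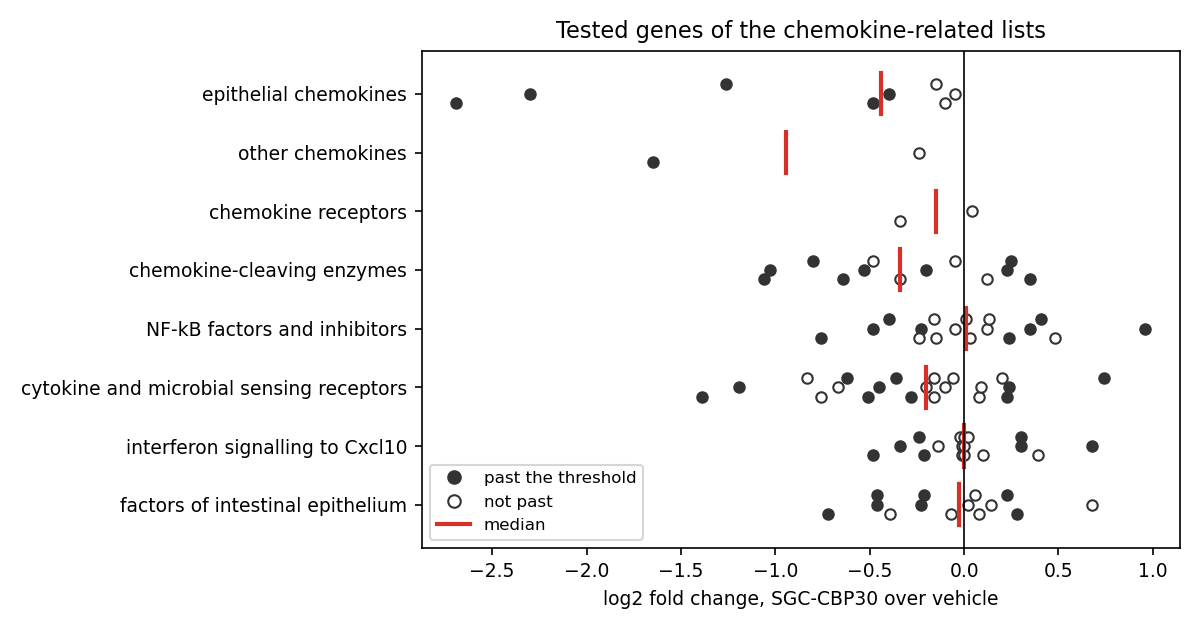
Log2 ratio of SGC-CBP30 to vehicle for each tested gene of the chemokine list and of 7 related lists (points; filled where past the threshold; vertical spread only separates points), with each list's median in red. The lowest points belong to Ccl9, Ccl6 and Cxcl11, and the medians of the NF-kB, interferon and transcription factor lists lie near 0.

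The genes with the most similar profile over the 4 libraries were sought for the lowest and the highest member by fold change. The search covered genes whose log2 CPM averaged 3 or more, without the members and without genes that have only a predicted-gene, clone or pseudogene symbol. For Ccl9 they were Otop3 (distance 0.409 in centred log2 CPM), Slco2b1 (0.488) and Papss2 (0.505). Otop3, a proton channel gene, had 57.9 and 56.7 CPM in vehicle and 7.58 and 8.77 CPM in SGC-CBP30. Papss2, a gene of sulfate activation, had 2427 and 2392 CPM against 422 and 465 CPM. For Cxcl10 they were Snrpe (0.489), Urb1 (0.513) and Slit2 (0.532), which did not pass the threshold; with 4 libraries such likeness describes these libraries only.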

How the data were processed

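Counts of 4 libraries came from 1 deposited table. Per the submitters' processing notes, the tools were featureCounts 1.5.0-p3, HISAT2 2.0.5 and StringTie 1.3.3b, without stated roles, and the build mm9; the table's coordinates are nevertheless those of GRCm38 (98.5% of 51477 identifiers shared with GENCODE M21 were identical, and all 10 members). How strand and multi-mapping reads were handled is not stated in those notes. The authors deposited, per the file headers, raw counts of each gene as whole numbers, FPKM, a signal of group means of normalized counts (not used), a log2 fold change with its p-value and adjusted p-value from an unnamed test, and gene length. The table stops within its last line. Libraries held 18087250 and 16433117 counts (vehicle) and 16674571 and 17076724 (SGC-CBP30). The floor covers counting error only.

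The group difference was tested in edgeR 4.0.16 under R 4.3.3, after filterByExpr and with TMM factors, by the robust quasi-likelihood F test without covariate and with Benjamini-Hochberg adjustment over all tested genes. The SE is the log2 fold change divided by the square root of F. The fit was tested on simulated data in which every gene had the same dispersion, so that check does not cover the spread of these libraries. Alternatives were library totals, DESeq2 1.42.0, no filter, at least 50 counts in 2 libraries, robust = FALSE, a replicate block, and leaving out each library. The members and lists were chosen with earlier results of these data known. Named genes were the members, up to 4 called genes of smallest p in each list with a mean of at least 1 CPM (or the 1 of smallest p), genes fixed by name, of which 1 is not reported here, and the 3 genes nearest to the lowest and highest member among those whose log2 CPM averaged 3 or more; Csf1r, Cd14, Cd68, Itgam, Itgax, Ptprc, Gp2, Epcam, Vil1, Ccl27a, Anxa5, Zmynd15 and the neighbours of Ccl6 were named after their values were seen. Upstream sequences are RefSeq's (GRCm38.p6), and promoters of Cxcl5 and Cxcl16 were not used here.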

Additional observations from a re-analysis of the deposited data

How the results depend on the processing

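The 5 chemokines called lower, and 0 called higher, held under all 10 alternatives. Over all genes the count of 4401 calls (2004 higher, 2397 lower) was 2899 to 4557 when 1 library was left out, with 1235 to 2104 higher and 1664 to 2453 lower; the lowest count was without vehicle replicate 2, and without vehicle replicate 1 it was 2996. DESeq2 called 1244 higher, and with library totals the split was 2907 higher and 1924 lower. A replicate block, for replicate numbers that the labels do not tie to a shared batch, gave 4703 calls and changed no member's call; the deviations of same-numbered libraries had a correlation across 9380 genes of 0.0142, so the numbers were not taken to pair the libraries. Of 436 values of named genes, 408 kept their direction and side of the threshold, 13 lost the threshold, 1 gained it (Snrpe, without SGC-CBP30 replicate 1) and 14 changed sign, none of them past the threshold. When 1 library was left out, the log2 fold change ran from -0.464 to 0.106 for Ccl20, -0.937 to 0.477 for Cxcl10, -0.777 to 0.259 for Ackr4, -0.644 to 0.499 for Ccr9, -0.264 to 0.547 for Snrpe, -0.336 to 0.251 for Urb1 and -0.232 to 0.379 for Slit2. The sign also changed with library totals for Cxcl10 (0.021) and Urb1 (0.005) and with the replicate block for Ccr9 (-0.018). Cxcl11 was not tested with at least 50 counts, which left 0 other chemokines called. The cause was not tested. Depth limits Cxcl1 and Cxcl5, at or under the floor, Cxcl10, with 5 to 14 counts, and the receptor genes, of which 2 of 23 passed the filter.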

Other observations

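Some genes under the filter on low counts differed between the groups in their few counts, which were not tested. Cxcl12, a chemokine mainly of stromal cells, had 3 and 6 counts in the vehicle libraries and 0 in both SGC-CBP30 libraries. Cxcl14 had 0 counts in both vehicle libraries and 8 and 3 in SGC-CBP30. The stromal collagen gene Col1a1 had 0 counts in vehicle and 9 and 2 in SGC-CBP30, and Col3a1 had 1 and 1 against 16 and 7. The other fibroblast markers did not all go this way. Pdgfra had 2 and 8 counts in vehicle against 16 and 4, and Dcn 4 and 0 against 0 and 5. Pdgfrb, which passed the filter, had 16 and 10 against 15 and 14. Col1a2 had 0 and 0 against 1 and 1, and Lum and Thy1 had 0 in all libraries. Over all tested genes the groups did not overlap in 63.1%, in either direction. That share covers genes that passed the filter and was not computed for genes under it. The genes given here were named after their values were seen.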
